A study of Mus musculus with 12 samples.

Results

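Methionine restriction in wild-type liver was described here from 6 of the 12 arrays of the series, 3 from wild-type males on a methionine-restricted diet and 3 from wild-type males on the control diet. The arrays were chosen by their labels alone, WT_MR replicates 1 to 3 against WT_CD replicates 1 to 3, and 19938 genes were compared between them. Both groups were male C57BL/6N mice bred from heterozygous Lmna G609G parents and carried no copy of the mutation. They received their diet from 7 weeks of age, and liver was taken at 110 days after 6 hours of fasting. The methionine content of the diets was not given in the sources used here. Besides these, 6 arrays came from males of the same strain, age and fasting that were homozygous for Lmna G609G (KI_CD and KI_MR), an allele used to model Hutchinson-Gilford progeria. Their values are set beside the wild-type ones below.

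Methionine is an essential amino acid. Liver converts it to S-adenosylmethionine, the main donor of methyl groups, and passes its sulfur through cystathionine to cysteine, from which glutathione and taurine are made. When an amino acid is scarce, the kinase GCN2 phosphorylates a translation initiation factor and the transcription factor ATF4 then raises genes for amino acid uptake and synthesis. Dietary methionine restriction is known for a rise of the liver hormone FGF21, for changes in lipid metabolism and for longer life in rodents.

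Transcripts were measured on Affymetrix arrays (Mouse Gene 1.0 ST, per the probe annotation), and values are intensities in arbitrary units as deposited. A change is the difference of mean log2 intensities, WT_MR minus WT_CD, with its SE from 1 limma fit over all 12 arrays and n = 3 arrays per diet. A gene is said to have risen or fallen where its Benjamini-Hochberg adjusted p over all genes was under 0.05. No call of detection came with the values. Where a group lay below the lower quartile of gene levels on its arrays (5.49 to 5.67, log2), a bound is given in which that group was raised to this quartile. Precision is limited by the number of arrays.

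The median intensity was 82 to 90 units on the 6 wild-type arrays, and each array correlated with the others of its group at a mean r of 0.9897 to 0.9942 across genes. Labelled sex was checked on all 12 arrays. Xist, the transcript that silences an X chromosome in female cells, read 31 to 40 units, and the Y-linked gene Eif2s3y read 417 to 685. The hepatocyte marker albumin (Alb) read 14385 to 15705 units on the wild-type arrays. Among 12 marker lists for hepatocytes, other liver cells, blood, fat, muscle and pancreas, no measured member passed the test. Summed Kupffer cell and macrophage markers read 9063 to 11080 units in WT_CD and 6988 to 12646 in WT_MR. WT_MR replicate 3 was the high one, with a median deviation of 0.80 (log2) from the mean of the other arrays of its group over these markers. In whole liver, fewer cells of a type and less RNA per cell cannot be told apart.

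In WT_MR, 65 of 19938 genes changed (0.326%), 42 higher (0.211%) and 23 lower (0.115%). All 65 had no overlap between the diets, as did 11.5% of all genes. The same arrays decide both the call and the overlap, so this adds no support to the calls. The largest rise was in Cyp2b9, a cytochrome P450 gene that is more active in female than in male mouse liver. The largest fall was in Hsd3b5, a steroid dehydrogenase gene of male liver. Between these, the rises held the cystine transporter gene Slc7a11, the taurine synthesis gene Csad, the quinone reductase gene Nqo1 and the fatty acid hydroxylase gene Cyp4a14. The falls held the adhesion receptor gene Adgrf1, the coagulation factor gene F11 and the complement gene C6. The change was larger than 1 on the log2 scale in 24 of the rises and 13 of the falls, and the smallest was 0.372.

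**Figure D1:**
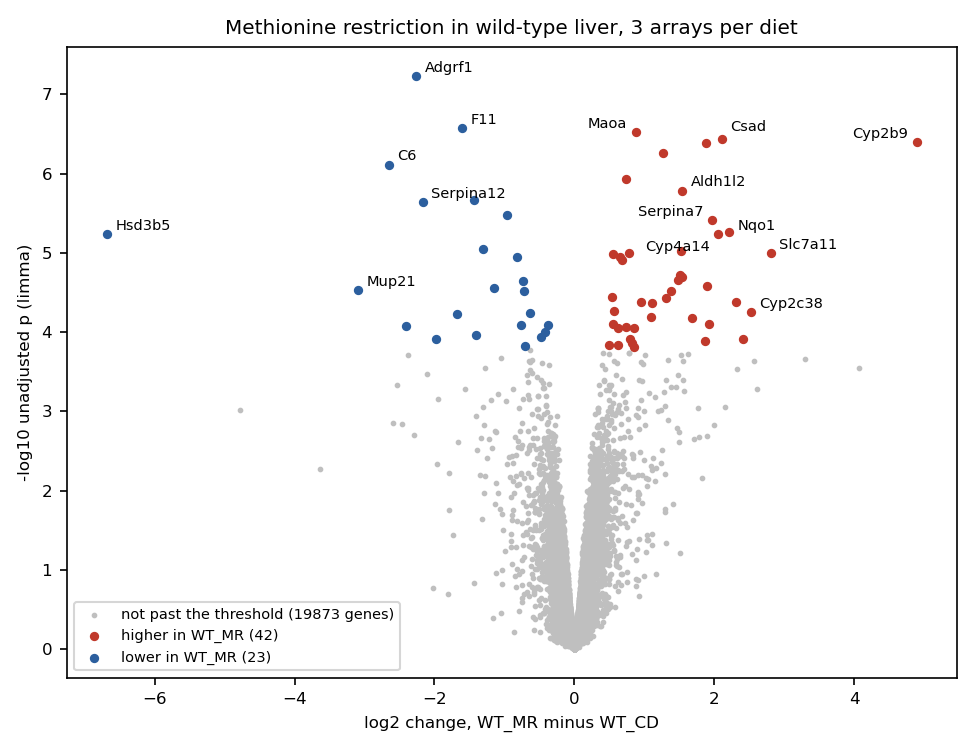
Each point is 1 of 19938 genes, with the log2 change (WT_MR minus WT_CD, 3 arrays per diet) on the horizontal axis and the negative log10 of the unadjusted limma p on the vertical axis. The 42 red points rose and the 23 blue points fell, from Cyp2b9 at 4.89 on the right to Hsd3b5 at -6.68 on the left.

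The test rests on few arrays. With 1 array left out, the count fell to 17 without WT_CD replicate 1, 18 without WT_MR replicate 1, 27 without WT_MR replicate 2 and 38 without WT_CD replicate 3, and rose to 199 without KI_CD replicate 1, which enters only through the shared estimate of the spread. In all 12 such fits 15 genes kept their call: Adgrf1, Aldh1l2, C6, Clec2h, Csad, Cyp2b9, Cyp2c39, Dnah11, F11, Itih5, Maoa, Nqo1, Serpina12, Serpina7 and Tcf24. Each other gene of the 65 lost its call in at least 1 of these fits, also where this is not repeated below. Of the 65 genes, 48 lost their call without WT_CD replicate 1, 47 without WT_MR replicate 1, 40 without WT_MR replicate 2 and 32 without WT_CD replicate 3. Every one of the 65 kept its direction in these fits, and no log2 change moved by more than 1.5 times.

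Amino acid response genes, the targets of ATF4 and related factors, were mostly higher. Of 26 measured, 3 rose (Slc7a11, Vldlr and Aldh1l2), against 0.211% of all genes, and 23 were above 0, where 47.4% of all genes lay. No overlap was seen in 20, all 20 of them higher, against 11.5% of all genes in either direction. The median change of the list was 0.60, against -0.0041 over all genes. Slc7a11 encodes the antiporter that brings cystine into the cell in exchange for glutamate. It read 37, 38 and 31 units in WT_CD and 352, 125 and 341 in WT_MR. The control arrays were dim and close together, and WT_MR replicate 2 was the lowest of the restricted arrays. The change was 2.81 ± 0.37, or at least 5.07-fold (limma adjusted p = 0.00935). Its call was lost in 2 of 12 fits with 1 array left out, where the value ran from 2.55 to 3.30.

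Vldlr, the very low density lipoprotein receptor gene, read 77, 103 and 90 units in WT_CD and 391, 301 and 316 in WT_MR, a change of 1.90 ± 0.28 (limma adjusted p = 0.0173). Aldh1l2, which encodes a mitochondrial enzyme of folate metabolism, read 61, 56 and 51 units in WT_CD and 156, 148 and 186 in WT_MR, a change of 1.54 ± 0.17 (adjusted p = 0.00326). In both genes the 3 restricted arrays lay clear of the 3 controls.

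Several of the best known members missed the threshold with wide errors, which are taken from the spread over all 12 arrays. Asns, which makes asparagine, read 548, 542 and 790 units in WT_CD and 4396, 3174 and 3546 in WT_MR. This was a difference of 2.57 ± 0.48 without overlap (limma adjusted p = 0.0566). Psat1 and Phgdh, enzymes of serine synthesis, differed by 2.33 ± 0.45 and 1.29 ± 0.27 (adjusted p = 0.0624 and 0.0887). The shared heavy chain gene of amino acid transporters, Slc3a2, differed by 0.98 ± 0.19 (adjusted p = 0.0575), and Mthfd2, a mitochondrial folate enzyme gene, by 1.5 ± 0.37 (adjusted p = 0.161). The hormone gene Fgf21 read 89, 80 and 89 units in WT_CD and 225, 449 and 217 in WT_MR. WT_MR replicate 2 was the highest of the restricted arrays, and the difference of 1.70 ± 0.43 did not pass (adjusted p = 0.173). The peptide hormone gene Adm2 was at 0.59 ± 0.12 (adjusted p = 0.0710), and the stress genes Chac1 (0.61 ± 0.33) and Trib3 (0.51 ± 0.46) had the same direction with larger errors. Stc2, another gene of this response, stood at -0.15 ± 0.10. KI_CD replicate 1, which enters these errors but not the differences, stood high in several of these genes. It read 2205 units of Asns, against 381 and 554 on the other KI_CD arrays. Psat1 read 296 there against 70 and 71, Slc3a2 2923 against 1668 and 1742, and Trib3 775 against 160 and 171. Phgdh (124 against 155 and 96) and Adm2 (110 against 111 and 93) did not stand out.

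The core of the element that ATF4 binds was looked for in RefSeq promoters (build GRCm38.p6, 250 bases before to 50 after the gene start). The motif searched was TGATGNAA on either strand. Of the 24 amino acid response genes with a promoter given, 8 held it (33.3%), against 4.51% of 27025 genes. The list is one of targets of ATF4 and related factors, so a raised share follows in part from its choice. Among the changed genes the motif was in 3 of 30 that rose and 2 of 19 that fell. Stretches around the match are shown for the 2 changed amino acid response genes that held one, Slc7a11 and Vldlr, and for Asns and Fgf21, with the match in capitals. Slc7a11 lies at chr3:50443616-50443735 on the minus strand with its matches 66 and 47 bases before the start, Vldlr at chr19:27216774-27216873 on the plus strand (200 bases before), Asns at chr6:7693210-7693309 on the minus strand (23 before) and Fgf21 at chr7:45615576-45615675 on the minus strand (139 before).
Slc7a11: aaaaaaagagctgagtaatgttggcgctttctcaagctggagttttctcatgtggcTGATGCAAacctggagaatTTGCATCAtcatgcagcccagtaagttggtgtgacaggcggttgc
Vldlr: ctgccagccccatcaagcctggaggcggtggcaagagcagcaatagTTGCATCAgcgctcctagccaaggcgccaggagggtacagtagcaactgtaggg
Asns: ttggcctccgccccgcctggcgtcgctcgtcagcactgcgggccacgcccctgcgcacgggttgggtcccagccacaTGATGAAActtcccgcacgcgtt
Fgf21: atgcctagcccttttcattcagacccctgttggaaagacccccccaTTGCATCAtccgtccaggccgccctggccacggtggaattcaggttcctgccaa
TTGCATCA is the same element read on the other strand. A match is a description of these letters and no evidence of binding.

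Genes that charge transfer RNAs with amino acids lay in the same direction with no member past the test. Of 16 measured, 0 passed by limma and 7 had an unadjusted p under 0.05, as 8.19% of all genes did. Above 0 were 15, where 47.4% of all genes lay, and 9 had no overlap, as 11.5% of all genes had. The median was 0.30. Gars, for glycine, read 443, 521 and 449 units in WT_CD and 905, 777 and 916 in WT_MR (0.88 ± 0.20, limma adjusted p = 0.122). Cars, for cysteine, was at 0.64 ± 0.22.

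No gene of the methionine cycle itself passed the test. Of 12 measured members of the methionine cycle, 0 passed by limma, 0 had an unadjusted p under 0.05, and 0 had no overlap between the diets. The median was 0.001 and the range ran from -0.65 to 0.25. Mat1a, which makes S-adenosylmethionine in liver, read 9431, 10359 and 9007 units in WT_CD and 10811, 10296 and 10036 in WT_MR (0.12 ± 0.07, limma adjusted p = 0.816). The glycine methyltransferase gene Gnmt stood at 0.06 ± 0.16, and Bhmt, which remethylates homocysteine, at -0.11 ± 0.33. The nicotinamide methyltransferase gene Nnmt had the lowest value, -0.65 ± 0.49, and its arrays overlapped.

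Downstream of cysteine 1 gene stood out. Csad encodes the decarboxylase that makes hypotaurine, the precursor of taurine. It read 446, 424 and 482 units in WT_CD and 1851, 2353 and 1679 in WT_MR. The restricted arrays lay far above the controls, and the rise was 2.11 ± 0.20 (limma adjusted p = 0.00135). It was the 1 member of 13 in transsulfuration and taurine synthesis that passed, beside a list median of 0.05. Cth, which releases cysteine from cystathionine, read 2570, 3142 and 2014 units in WT_CD and 4181, 3355 and 3587 in WT_MR. It had no overlap and a difference of 0.54 ± 0.15 that did not pass (adjusted p = 0.231). Cbs, the step before it, was at 0.05 ± 0.12 and the cysteine dioxygenase gene Cdo1 at -0.11 ± 0.16.

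In serine and folate metabolism, 1 of 19 genes rose and 1 fell, with 15 above 0 and a median of 0.18. The riser was Aldh1l2, already given. The faller was Ftcd, which feeds carbon from histidine breakdown into folate, at 2071, 2156 and 2047 units in WT_CD and 1479, 1330 and 1226 in WT_MR (-0.64 ± 0.10, limma adjusted p = 0.0272). Its call was lost in 6 of 12 fits with 1 array left out.

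Glutathione and NRF2 genes were mostly higher. NRF2 is the transcription factor that answers oxidants and electrophiles by raising glutathione synthesis and detoxifying enzymes. Of 21 measured, 5 rose (Slc7a11, Nqo1, Gsta4, Abcc4 and Gsr), 19 were above 0 and 17 were higher without overlap, with a median of 0.72. Over all genes 0.211% rose, 47.4% were above 0 and 11.5% had no overlap in either direction. Slc7a11 belongs to both the glutathione and NRF2 list and the amino acid response list. Nqo1, which reduces quinones, read 50, 48 and 43 units in WT_CD and 202, 208 and 245 in WT_MR, a rise of 2.21 ± 0.27 or at least 4.47-fold (limma adjusted p = 0.00686). The glutathione transferase gene Gsta4 read 786, 785 and 701 units in WT_CD and 2516, 2779 and 2972 in WT_MR (1.86 ± 0.33, adjusted p = 0.0424). Both genes had narrow groups far apart from each other.

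The efflux pump gene Abcc4 read 141, 136 and 132 units in WT_CD and 487, 364 and 315 in WT_MR (1.49 ± 0.21, limma adjusted p = 0.0156). Gsr, which regenerates reduced glutathione, rose by 0.57 ± 0.09, from 796 to 898 units in WT_CD to 1162 to 1376 in WT_MR. The call of Nqo1 held in all 12 fits with 1 array left out, whereas those of Gsta4, Gsr and Abcc4 were lost in 8, 6 and 5. The rises that follow are outside the list and bear on no count of it. The carbonyl reductase gene Cbr1 rose by 1.38 ± 0.21, the microsomal glutathione transferase gene Mgst3 by 1.54 ± 0.22 and Gsto1, another transferase gene, by 0.50 ± 0.09. The call of Gsto1 was lost in 10 of 12 fits with 1 array left out. The aldehyde oxidase gene Aox1 rose by 1.31 ± 0.20, and the monoamine oxidase gene Maoa by 0.88 ± 0.08, from 57, 65 and 59 units in WT_CD to 112, 106 and 114 in WT_MR.

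The core of the antioxidant response element, TGACNNNGC on either strand, was in 7 of 16 promoters of the glutathione and NRF2 list (43.8%) and in 14.0% of all genes. It was also in 8 of 24 amino acid response promoters and 4 of 16 cholesterol synthesis promoters, both above the share of all genes. A higher share was thus not particular to the glutathione and NRF2 list. Among the changed genes, the core was in 4 of 30 that rose (13.3%) and 3 of 19 that fell (15.8%). Of the 5 members that rose, Abcc4 held a match in its window, 25 bases before the first of its listed starts (chr14:118706220-118706319, minus strand), printed with the match in capitals.
Abcc4: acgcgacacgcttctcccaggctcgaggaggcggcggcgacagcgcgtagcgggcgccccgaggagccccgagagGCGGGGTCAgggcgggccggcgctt

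**Figure D2:**
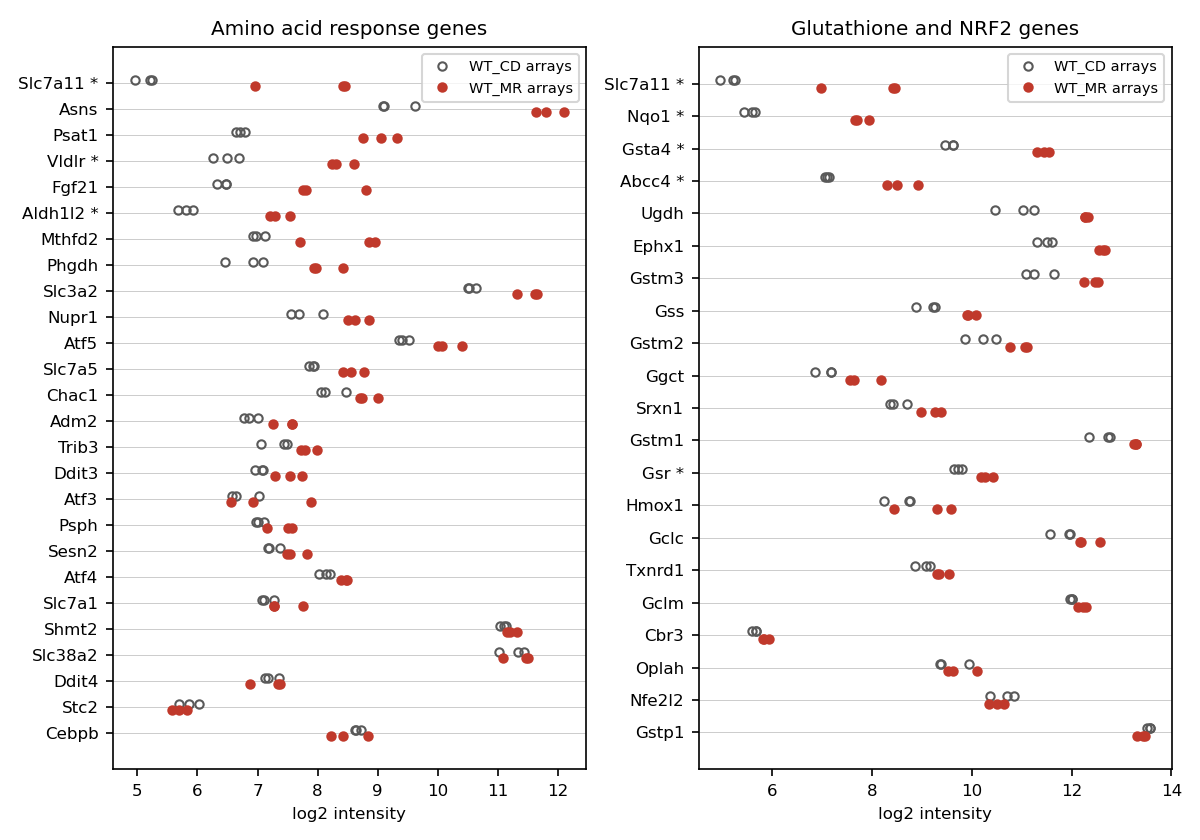
Log2 intensity of every measured amino acid response gene (left) and glutathione or NRF2 gene (right), with open circles for the 3 WT_CD arrays, red points for the 3 WT_MR arrays and an asterisk on genes past the limma threshold. Genes are ordered by their change, and the restricted arrays lie to the right of the controls without overlap in 20 of 26 and 17 of 21 genes.

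Male-biased liver genes were lower in the restricted males, and most female-biased ones were higher. In rodents the difference between the sexes is set by the pulsing of growth hormone from the pituitary, which is intermittent in males and steadier in females, and acts through the growth hormone receptor and STAT5B. All 16 measured male-biased genes were below 0 in WT_MR, where 52.1% of all genes lay, 15 of them without overlap, and 5 fell (Hsd3b5, Mup21, C6, Cyp4a12b and Serpina12). Their median was -2.06. Of 18 measured female-biased genes, 17 were above 0 and 12 had no overlap, 1 rose (Cyp2b9), and the median was 0.62. Over all genes 47.4% were above 0 and 11.5% had no overlap. The list median was 1.44 and 1.47 without the dimmest 25% and 50% of all genes. Dimness was judged by the mean over all 12 arrays, so genes dim in WT_CD could stay in through groups where they were bright. These medians depend on that filter and are no support for a rise. Of the 18 female-biased genes, 6 lay below the lower quartile of gene levels in both groups, where only coarse values can be had.

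Hsd3b5 read 4774, 2926 and 4859 units in WT_CD and 36, 38 and 46 in WT_MR. It went from a bright signal to the dim end of the arrays in all 3 restricted samples, a change of -6.68 ± 0.83 or at least 84.5-fold lower (limma adjusted p = 0.00686). C6, of the complement membrane attack complex, read 2624, 2084 and 3674 units in WT_CD and 421, 293 and 658 in WT_MR (-2.65 ± 0.27, adjusted p = 0.00192). Serpina12, which encodes the adipokine vaspin, read 279, 181 and 396 units in WT_CD and 55, 57 and 71 in WT_MR (-2.16 ± 0.25, adjusted p = 0.00383). The calls of C6 and Serpina12 held in all 12 fits with 1 array left out.

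The major urinary protein gene Mup21 fell by 3.09 (SE 0.46), from 735 to 946 units in WT_CD to 62 to 185 in WT_MR, and the fatty acid omega-hydroxylase gene Cyp4a12b fell by 2.40 (SE 0.40), from 2707 to 3896 units to 409 to 952. Both belong to families of near-identical copies that can share signal on such arrays. The steroid and organic anion transporter gene Slco1a1 read 4541, 4695 and 4597 units in WT_CD and 421, 163 and 742 in WT_MR. The controls were almost equal and the restricted arrays far below them, yet the difference of -3.64 ± 1.06 did not pass, with the spread taken over all 4 groups (limma adjusted p = 0.255). Elovl3, a fatty acid elongase gene, was at -2.47 ± 0.59 (adjusted p = 0.141) and the oxysterol hydroxylase gene Cyp7b1 at -1.79 ± 0.53 (adjusted p = 0.266), both without overlap.

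Cyp2b9 read 131, 766 and 255 units in WT_CD and 8940, 9527 and 7840 in WT_MR. The controls varied several-fold among themselves, and every restricted array was far above the highest of them. The rise was 4.89 ± 0.47, or 29.7-fold (limma adjusted p = 0.00135), and ran from 4.31 to 5.58 with 1 array left out. Its close paralog Cyp2b13 read 30, 39 and 28 units in WT_CD and 187, 342 and 117 in WT_MR (2.61 ± 0.54, at least 4.02-fold, adjusted p = 0.0848). The 2 genes can share signal. The peroxisomal transporter gene Abcd2 (1.63 ± 0.30, adjusted p = 0.0531), the proton pump subunit gene Atp6v0d2 (2.0 ± 0.48) and the thioesterase gene Acot3 (1.76 ± 0.39) differed without overlap and did not pass. The female-biased transcription factor gene Cux2 was at 0.46 ± 0.15.

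The genes of growth hormone signalling were less uniform, with 0 of 15 past the threshold by limma, 4 at an unadjusted p under 0.05 and a median of -0.13, which turned to 0.06 without WT_CD replicate 3 and to 0.02 without WT_MR replicate 2. The receptor gene Ghr read 5428, 5314 and 5453 units in WT_CD and 3303, 3307 and 3635 in WT_MR, 2 narrow groups without overlap (-0.66 ± 0.16, limma adjusted p = 0.158). Its target Igf1 was at -0.19 ± 0.10. The binding protein genes Igfbp1 (0.57 ± 0.52) and Igfbp2 (0.50 ± 0.15) and the feedback inhibitor gene Socs2 (1.11 ± 0.50) were above 0. A second probe set of Socs2 gave 0.29. WT_MR replicate 3, the array with high Kupffer cell markers, was also the highest restricted array over the male-biased genes. Its median deviation from the mean of the other restricted arrays was 0.49.

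**Figure D3:**
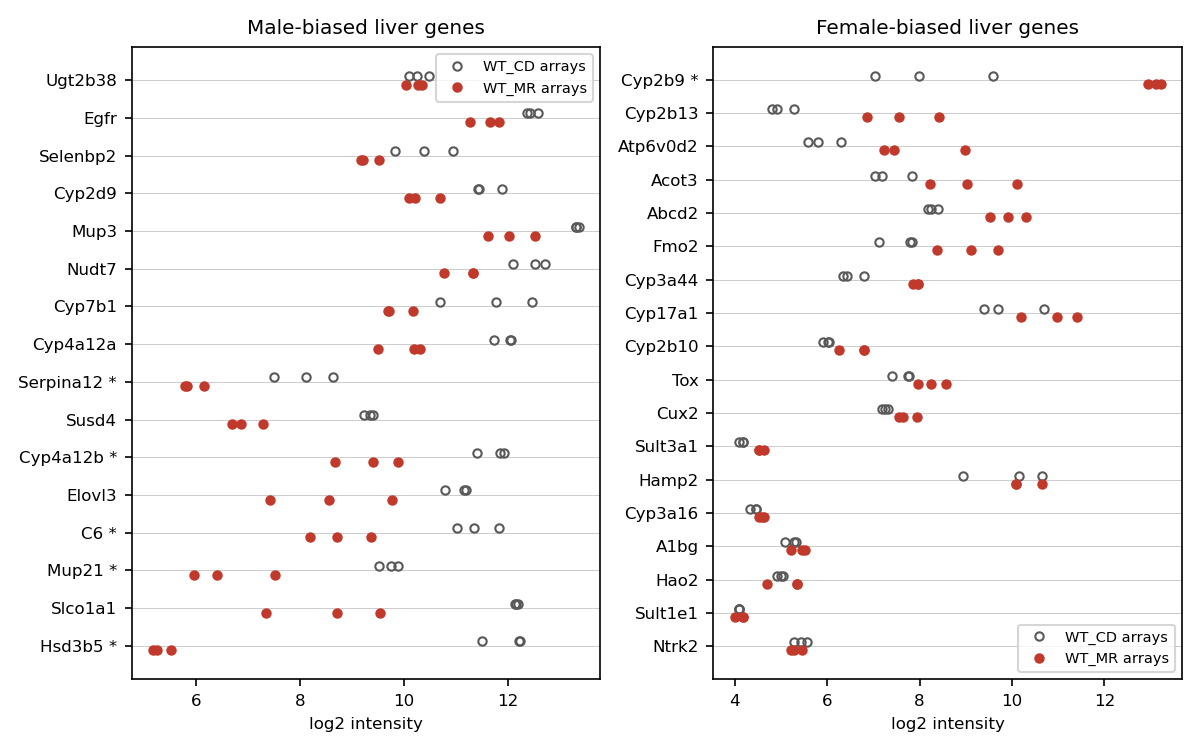
Log2 intensity of male-biased (left) and female-biased (right) liver genes on the 3 WT_CD arrays (open circles) and the 3 WT_MR arrays (red points), with an asterisk on genes past the limma threshold. Restricted arrays lie to the left of the controls without overlap in 15 of 16 male-biased genes and to the right in 12 of 18 female-biased genes.

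Cholesterol synthesis genes were higher throughout. All 20 measured genes were above 0 (47.4% of all genes), 12 of them without overlap (11.5% of all genes). The median was 0.68, and 1 passed. These genes are raised by the transcription factor SREBP2 when sterols in the cell run low. The gene that passed was Fdft1, squalene synthase, the first step committed to sterols. It read 2739, 2856 and 2541 units in WT_CD and 4287, 4509 and 3789 in WT_MR, a rise of 0.63 ± 0.11 (limma adjusted p = 0.0462), and a second probe set gave 0.70. The call was lost in 8 of 12 fits with 1 array left out, with values from 0.57 to 0.70.

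Hmgcs1, which makes the HMG-CoA that the pathway starts from, read 1125, 1444 and 689 units in WT_CD and 3236, 3305 and 2267 in WT_MR (1.48 ± 0.29, limma adjusted p = 0.0710). WT_CD replicate 3 and WT_MR replicate 3 were the lowest of their groups. Hsd17b7 (0.93 ± 0.19), Mvd (0.90 ± 0.21) and Srebf2, the gene of SREBP2 itself (0.53 ± 0.11), also differed without overlap and did not pass. The sterol regulatory element TCACNCCAC, on either strand, was in the window of 1 of 16 promoters of the list (6.25%), that of Hmgcs1, and in 1.44% of all genes. The match, in capitals, lies 137 bases before the start (chr13:119690169-119690268, plus strand).
Hmgcs1: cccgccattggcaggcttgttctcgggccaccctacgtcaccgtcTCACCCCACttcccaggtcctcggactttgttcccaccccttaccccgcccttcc

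Most fatty acid synthesis genes lay the other way. Of 21 measured, 0 passed by limma, 3 had an unadjusted p under 0.05, 18 were below 0 and 2 had no overlap, with a median of -0.17. Over all genes, 8.19% had such a p, 52.1% were below 0 and 11.5% had no overlap. The count without overlap was thus no more than the share over all genes. The 2 without overlap, Srebf1 and Thrsp, were both lower. Srebf1, the gene of the transcription factor that drives the pathway, read 1387, 1104 and 838 units in WT_CD and 615, 610 and 447 in WT_MR (-0.98 ± 0.21, limma adjusted p = 0.101). Thrsp, a lipogenic regulator, was at -1.79 ± 0.64 and the liver pyruvate kinase gene Pklr at -0.76 ± 0.29. Among the controls, WT_CD replicate 3 was low, with a median deviation of -0.85 from the mean of the other controls over the list. The list median was -0.46 without it and -0.10 without WT_CD replicate 2. The desaturase gene Scd1 stood at -0.12 ± 0.11.

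Among 27 genes of fatty acid oxidation and PPARA targets, 1 rose, 22 were above 0 and the median was 0.31. No overlap was seen in 10 (8 higher and 2 lower). Over all genes 0.211% rose, 47.4% were above 0 and 11.5% had no overlap. WT_MR replicate 2 stood apart over this list, and the list median was 0.20 without it. Its median deviation from the mean of the other restricted arrays was 0.51. For those arrays, each taken in the same way, it was -0.22 and -0.25. PPARA is the nuclear receptor that raises fat burning in fasted liver. Cyp4a14, a classic target, read 1654, 1404 and 3126 units in WT_CD and 6638, 9755 and 8068 in WT_MR (2.06 ± 0.26, limma adjusted p = 0.00686). The fatty acid uptake gene Cd36 read 353, 397 and 364 units in WT_CD and 1619, 1754 and 1569 in WT_MR. This is a wide gap between 2 narrow groups, but with the spread of all 12 arrays the difference of 2.15 ± 0.48 did not pass (adjusted p = 0.113). The pyruvate dehydrogenase kinase gene Pdk4 was at 1.90 ± 0.48, and Ppara itself at -0.26 ± 0.11.

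Bile acid genes were mixed. Of 24 measured, 1 fell, 18 were below 0 and 12 had no overlap (5 higher and 7 lower). Over all genes 0.115% fell, 52.1% were below 0 and 11.5% had no overlap. The list median was -0.16, and -0.11 without WT_MR replicate 1. The faller was Scp2, a sterol carrier and peroxisomal thiolase gene, at 5292, 5000 and 6364 units in WT_CD and 3030, 3525 and 3682 in WT_MR (-0.70 ± 0.12, limma adjusted p = 0.0462). Its call was lost in 10 of 12 fits with 1 array left out. Cyp7a1, whose enzyme limits the rate of bile acid synthesis, read 1826, 2077 and 2219 units in WT_CD and 5963, 4297 and 3285 in WT_MR. It had no overlap and did not pass (1.11 ± 0.32, adjusted p = 0.256). Cyp8b1, which sets the share of cholic acid, was at -0.20 ± 0.61. Cyp39a1, an oxysterol hydroxylase gene outside the list, rose by 1.68 ± 0.27, from 540, 1095 and 1400 units in WT_CD to 3396, 2857 and 2794 in WT_MR.

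**Figure D4:**
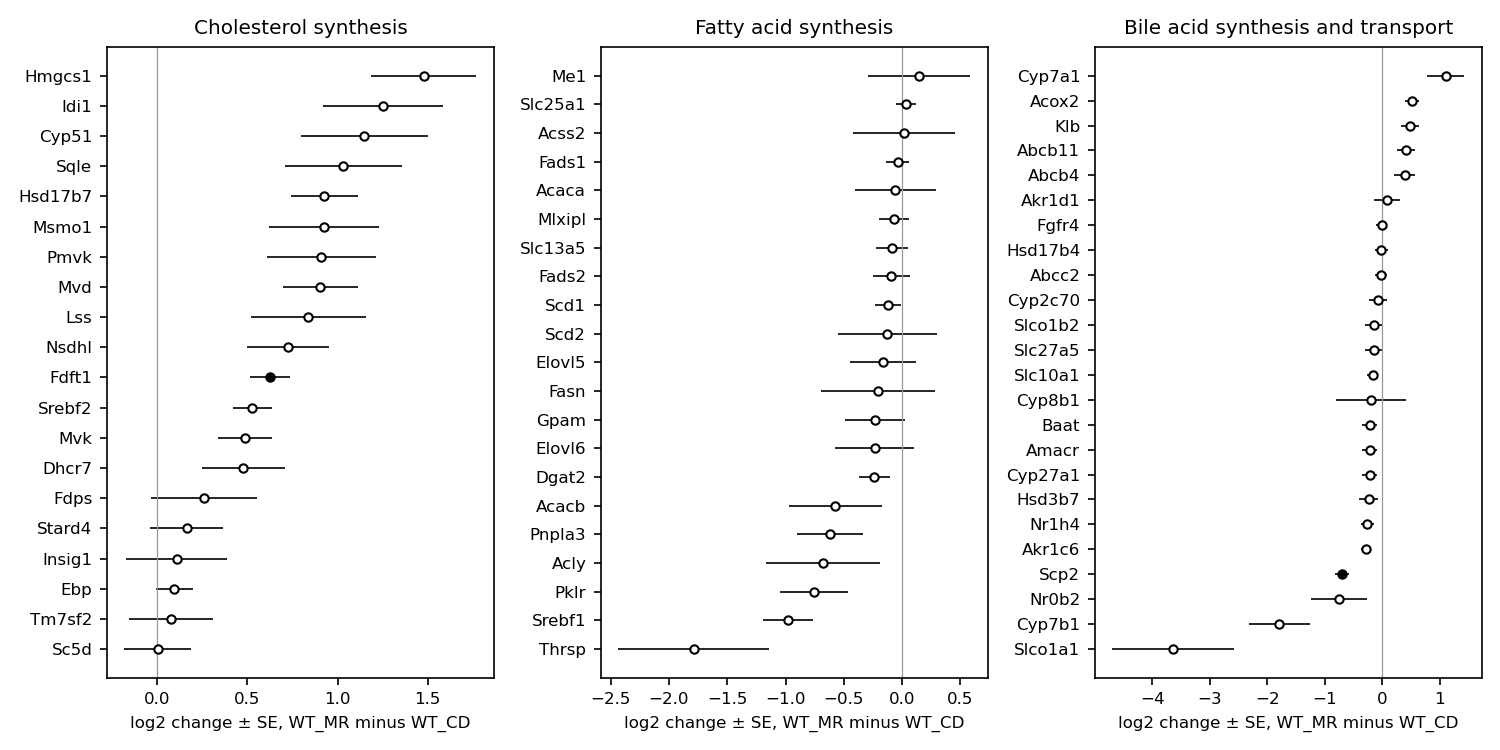
Log2 change ± SE (WT_MR minus WT_CD, n = 3 arrays per diet) of each measured gene of cholesterol synthesis, fatty acid synthesis, and bile acid synthesis and transport, with filled points for genes past the limma threshold. All 20 cholesterol genes lie at or right of 0, 18 of 21 fatty acid genes left of it, and the bile acid genes on both sides, from Slco1a1 at -3.64 to Cyp7a1 at 1.11.

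The rises below lie outside these lists. The P450 genes Cyp2c38 (2.53 ± 0.40) and Cyp2c39 (1.88 ± 0.18) rose, the latter from 113, 140 and 108 units in WT_CD to 488, 416 and 422 in WT_MR. They too are close relatives that can share signal. The monocarboxylate transporter gene Slc16a5 rose by 2.31 ± 0.36, the organic anion transporter gene Slco1a4 by 1.92 ± 0.32, the zinc transporter gene Slc39a4 by 1.5 ± 0.21 and the haem transporter gene Slc48a1 by 0.68 ± 0.09. Ces1b, a carboxylesterase gene, rose by 1.52 ± 0.20. Serpina7, the thyroxine-binding globulin gene, read 668, 425 and 555 units in WT_CD and 1980, 1987 and 2403 in WT_MR, a rise of 1.97 ± 0.24 (limma adjusted p = 0.00556).

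Gadd45b, a stress gene of the growth arrest family, read 95, 108 and 114 units in WT_CD and 627, 773 and 362 in WT_MR (2.41 ± 0.42, limma adjusted p = 0.0413). It was the 1 of 20 measured p53 targets that passed, beside a list median of -0.04. Tcf24, a transcription factor gene, rose by 1.27 ± 0.13, and Pck2, the mitochondrial phosphoenolpyruvate carboxykinase gene, by 0.79 ± 0.14. Further rises were those of the acid alpha-glucosidase gene Gaa (0.53 ± 0.08), Cln6 (1.09 ± 0.18, an ER protein whose loss causes a lysosomal storage disease), the carboxypeptidase gene Scpep1 (0.78 ± 0.10), the cobalamin enzyme gene Mmab (0.74 ± 0.12), the dynein gene Dnah11 (0.73 ± 0.08, at least 1.62-fold), the membrane protein genes Emp2 (0.85 ± 0.15) and Aig1 (1.11 ± 0.17), and Miga1 (0.56 ± 0.07), which acts in mitochondrial fusion. With 1 array left out, the call was lost in 10 of 12 fits for Emp2, in 9 for Pck2 and in 7 for Gadd45b.

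Of the falls outside the lists, that of Adgrf1 had the smallest p of any gene. This adhesion G protein-coupled receptor gene read 266, 263 and 404 units in WT_CD and 63, 56 and 73 in WT_MR (-2.26 ± 0.18, limma adjusted p = 0.00116). F11, coagulation factor XI, read 986, 914 and 804 units in WT_CD and 291, 254 and 348 in WT_MR (-1.61 ± 0.15, adjusted p = 0.00135). Both held in all 12 fits with 1 array left out, as did the lectin gene Clec2h (-1.43 ± 0.16) and the matrix protein gene Itih5 (-0.97 ± 0.11).

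Hao1, the glycolate oxidase gene of peroxisomes, read 1721, 1574 and 2148 units in WT_CD and 802, 754 and 870 in WT_MR (-1.16 ± 0.17). The actin regulator gene Carmil1 fell by 1.68 (SE 0.27), Ttc39c by 1.40 (SE 0.24) and the secreted protein gene Olfm3 by 0.82 (SE 0.11). The call of Ttc39c was lost in 9 of 12 fits with 1 array left out. Bhlhe41, a repressor of the circadian clock, fell from 100, 96 and 90 units in WT_CD to 42, 39 and 35 in WT_MR (-1.31 ± 0.17, at least 1.99-fold). It was the 1 of 17 circadian genes that passed, against 0.326% of all genes, beside a list median of -0.23. That median was -0.06 without WT_MR replicate 3 and -0.40 without WT_MR replicate 1. In the clock output gene Dbp (-0.45 ± 0.25) and in Per3 (-0.52 ± 0.35) WT_MR replicate 3 alone was low. Moxd1 fell by 1.97 (SE 0.34, at least 3.05-fold) from 193, 68 and 238 units in WT_CD. Its call was lost in 10 of 12 fits with 1 array left out, and the value ran from -2.52 to -1.62.

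Other processes showed no member past the threshold by limma. Counts at an unadjusted p under 0.05 take in both directions, and 8.19% of all genes had such a p. Interferon-stimulated genes had 18 of 22 members below 0, 6 at an unadjusted p under 0.05 and a median of -0.14. That median was -0.29 without WT_MR replicate 3 and -0.22 without WT_CD replicate 2. Among the 6 were the antigen processing genes Tap1 at -0.52 ± 0.12 and Psmb9 at -0.56 ± 0.15, and Usp18 at 0.40 ± 0.17. Periportal hepatocyte genes had a median of -0.26 (-0.17 without WT_CD replicate 2) with 10 of 13 below 0 and 5 at an unadjusted p under 0.05. Pericentral ones had a median of -0.09 with 13 of 18 below 0 and 4 under 0.05. Of the periportal genes under 0.05, Hsd17b6 (0.73 ± 0.25) and Hsd17b13 (0.345 ± 0.094) were above 0, and Cyp2f2, Pigr and Otc below. Of the pericentral ones, Ahr (0.41 ± 0.17) and Notum (0.29 ± 0.13) were above 0, and Rgn and Gulo below. The periportal P450 gene Cyp2f2 read 11051, 11314 and 11583 units in WT_CD and 7867, 8963 and 9142 in WT_MR (-0.39 ± 0.09, limma adjusted p = 0.117). Heat shock genes had 13 of 14 above 0, 5 at an unadjusted p under 0.05 and a median of 0.24, with the mitochondrial chaperonin genes Hspe1 at 0.48 ± 0.13 and Hspd1 at 0.31 ± 0.09.

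Acute phase genes had a median of -0.09, which turned to 0.02 without WT_CD replicate 3, and 4 of 26 at an unadjusted p under 0.05, and differed between arrays of the same diet. The metallothionein gene Mt2 read 591, 829 and 5566 units in WT_CD and 4706, 2680 and 5062 in WT_MR, so that WT_CD replicate 3 lay above all restricted arrays and the difference of 1.52 ± 0.73 did not pass. The serum amyloid P gene Apcs was at 1.23 ± 0.35 with overlap. Cell cycle genes had a median of 0.02 and 2 of 26 at an unadjusted p under 0.05, with the cyclin gene Ccnd1 at 1.16 ± 0.68. Ccnd1 read 728, 643 and 654 units in WT_CD and 1315, 2262 and 1153 in WT_MR, without overlap. Its error also takes in KI_CD replicate 1, which read 3316 units against 276 and 582 on the other KI_CD arrays. Nuclear envelope genes had a median of 0.07 and 1 of 18 under 0.05, and Lmna read 168, 162 and 168 units in WT_CD and 198, 188 and 175 in WT_MR (0.17 ± 0.14). The ER chaperone (median -0.06), gluconeogenesis and insulin (-0.07) and polyamine (0.10) lists had 4 of 21, 2 of 15 and 1 of 11 members at an unadjusted p under 0.05. Amino acid transporters had 1 riser of 24, Slc7a11 (0.211% of all genes rose), and a median of 0.04. Of the erythroid marker list, 3 genes were measured, and Alas2, the haem synthesis gene of red cell precursors, read 1263, 1051 and 1094 units in WT_CD and 458, 432 and 636 in WT_MR (-1.18 ± 0.31, adjusted p = 0.201).

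The brightest markers of other cells did not pass the test. Differences were -0.25 ± 0.20 for Vsig4 of Kupffer cells, 0.03 ± 0.16 for Clec4g of endothelial cells, -0.17 ± 0.09 for Dcn of stellate cells and fibroblasts, and -0.27 ± 0.13 for Sox9 of bile ducts. Cd3e of T cells was at -0.11 ± 0.11, Cd79b of B cells at 0.14 ± 0.14, Csf3r of neutrophils at 0.07 ± 0.11, Plin1 of fat cells at -0.26 ± 0.12, Cela3b of pancreas at -0.03 ± 0.13 and Acta1 of muscle at -0.49 ± 0.92. In Acta1, WT_CD replicate 3 was high at 335 units, against 146 to 181 on the other wild-type arrays. The error of Acta1 also takes in KI_MR replicate 2, which read 3609 units against 186 and 145 on the other KI_MR arrays.

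The same diet in knock-in males, KI_MR against KI_CD, was measured on arrays that the wild-type comparison does not contain. Those arrays did enter the shared spread by which the 65 genes were called, which favours genes with a narrow spread in the knock-in, so the counts below describe the 65 and are no independent check of them. In the knock-in, 61 had the same sign as in wild type, 38 rises and 23 falls, where 56.2% of all genes had, and 41 had no overlap, against 10.7% of all genes. The threshold was passed in both genotypes by 11 genes: Adgrf1, Aldh1l2, Bhlhe41, C6, Clec2h, Csad, Itih5, Mei4, Olfm3, Slc7a11 and Vldlr. These are 16.9% of the 65 and 31.4% of the 35 genes that passed in the knock-in (0.176% of all genes), a count that ran from 7 to 94 with 1 array left out. Csad read 219, 359 and 207 units in KI_CD and 1379, 1274 and 1701 in KI_MR, a rise of 2.51 ± 0.20, beside 2.11 ± 0.20 in wild type. Adgrf1 fell by 2.0 (SE 0.18) in the knock-in and by 2.26 (SE 0.18) in wild type.

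Genes were chosen on their wild-type values, so a smaller value in the knock-in does not by itself show a weaker response. The median size was 1.31 in wild type, and in the knock-in the median change in the wild-type direction was 0.46. The test of the difference is the interaction of diet with genotype. By limma 0 of 19938 genes passed it, with 824 (4.13%) at an unadjusted p under 0.05, of which 38 were among the 65. The interaction contains the wild-type change by which the 65 were chosen, so small p are favoured among them. The count of 38 is therefore no sign of a difference between genotypes. With 0 genes past adjustment, the calls in wild type alone are not shown to be particular to wild type.

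The interaction had its smallest p in Serpina7 (unadjusted p = 2.1e-05) and was next in Slc13a5 and Cyp2b9 (unadjusted p = 4.3e-05 and 4.4e-05, limma adjusted p = 0.293 for both). Serpina7 was at -0.36 ± 0.24 in the knock-in and Cyp2b9 at 0.64 ± 0.47. Cyp2b9 already read 8057, 5508 and 8043 units in KI_CD, with 2 arrays inside the range of WT_MR and 1 below it, and 10490, 10611 and 12068 in KI_MR. Serpina7 read 3475, 4227 and 2069 units in KI_CD, and Serpina12 read 46, 63 and 59, beside 55, 57 and 71 in WT_MR. Knock-in controls and restricted wild-type mice were each compared with the same WT_CD arrays, so the values are set side by side without a test. Cyp2b9 was at 4.89 with the diet in wild type and 4.59 with the knock-in on the control diet, Serpina7 at 1.97 and 2.53, Slco1a4 at 1.92 and 2.13, Serpina12 at -2.16 and -2.29, and Cyp4a12b at -2.40 and -3.83. Other genes, also picked after their values were seen, had no such likeness. Csad was at 2.11 with the diet and -0.83 with the knock-in, Slc7a11 at 2.81 and 0.05, Aldh1l2 at 1.54 and 0.01, and Adgrf1 at -2.26 and -0.23.

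Others among the smallest interaction p did not pass in wild type. The citrate transporter gene Slc13a5 was at -0.08 in wild type and -1.34 in the knock-in, the retinal dehydrogenase gene Aldh1a1 at 0.34 and -0.67, and the transporter gene Slc22a18 at 0.08 and -0.42. In the other direction, besides Serpina12 and F11, the glutamate transporter gene Slc17a8 was at -0.59 in wild type and 1.13 in the knock-in, Tmem267 at 0.04 and 1.44, and Srebf1 at -0.98 and 0.21. For Cyp7a1, Fgf21 and Cd36 the unadjusted interaction p was under 0.05 and did not pass adjustment. Cyp7a1 was at 1.11 in wild type and -1.15 in the knock-in (unadjusted p = 4.25e-04), Fgf21 at 1.70 and -0.32 (unadjusted p = 0.00674), and Cd36 at 2.15 and -0.03 (unadjusted p = 0.00807). The knock-in values of Cd36 and Fgf21 rest on KI_CD replicate 1, which read 1581 units of Cd36 against 288 and 351 on the other KI_CD arrays, and 250 of Fgf21 against 76 and 72. Without this array the knock-in difference turned to 0.74 ± 0.15 for Cd36 and to 0.27 ± 0.29 for Fgf21, and was -0.99 for Cyp7a1. With each array left out in turn, the highest unadjusted interaction p was 0.0191 for Cd36, 0.0192 for Fgf21 and 0.00153 for Cyp7a1. Without KI_CD replicate 1, an array picked after its values were seen, the unadjusted limma p was 2.18e-05, 0.00373 and 0.00118.

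**Figure D5:**
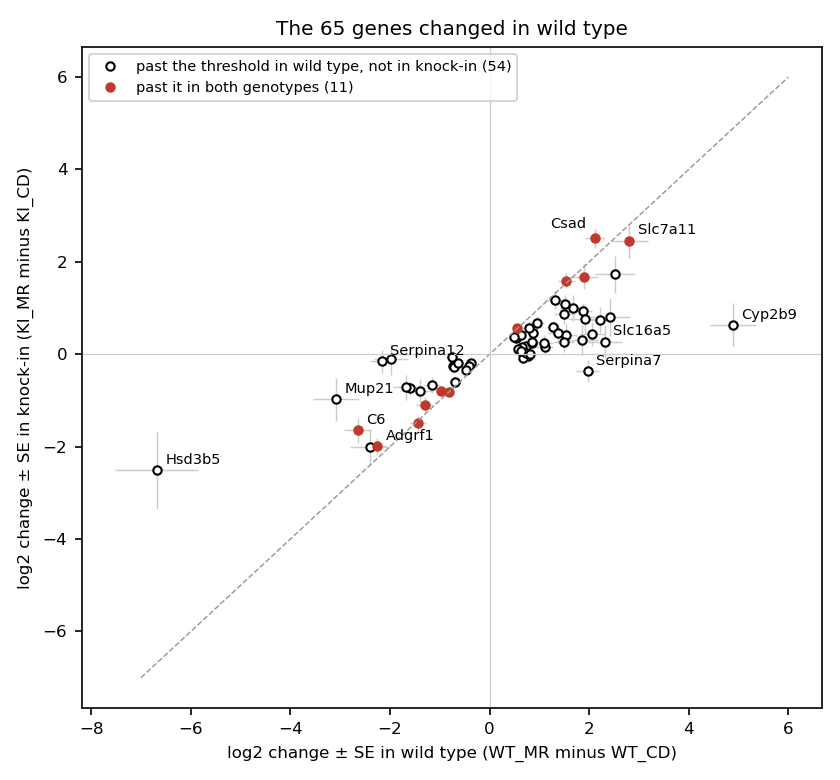
Log2 change ± SE with methionine restriction in wild type (horizontal, WT_MR minus WT_CD) and in the Lmna G609G knock-in (vertical, KI_MR minus KI_CD) for the 65 genes that changed in wild type, n = 3 arrays per group, with the dashed line where both are equal. The 11 red genes passed the limma threshold in both, among them Csad at 2.11 and 2.51, and Cyp2b9 lies far from the line at 4.89 and 0.64.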

How the data were processed

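Liver RNA was hybridised to 12 arrays, 3 per group, and grouped by sample title. The deposited values were linear probe set intensities on a common scale, rounded to whole numbers between 10 and 20042. Background correction and scaling by the authors were not given in the sources used here. Intensities were taken to log2 with no further scaling. Rounding makes dim genes coarse, and 13.98% of gene values lay under 32 units. Of 35512 probe sets, 21789 carried 1 gene symbol, 1621 several and 12102 none in the platform annotation. The brightest probe set per symbol over all 12 arrays was kept, giving 19938 genes, of which 999 had further probe sets.

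The 4 group means were fitted in limma 3.58.1 (R 4.3.3), eBayes at default settings, two-sided, with 8 residual and 3.14 prior degrees of freedom. Benjamini-Hochberg adjustment ran over all genes. With 3 arrays against 3, exact permutation cannot go below p = 0.1, so it was not used. The labels do not say that arrays are separate animals, and p-values then measure only the spread between samples, which may be technical. No 2 arrays held identical values. The fit was tested on simulated data.

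The comparison, members and gene lists were chosen with earlier results of these data known, and a list is described by counts and medians, not tested. The text names the 15 largest rises and falls past the threshold without overlap, other genes past it, up to 5 members per pathway list with the smallest p, a set of metabolic genes, the 5 smallest interaction p each way and the brightest marker of each cell type. Predicted loci were left out. Genes named for how 1 array stood were picked after their values were seen. Listed genes without a probe set of 1 symbol are not analysed here. Promoters came from RefSeq (GRCm38.p6). Tables were made with pandas 2.3.3 and numpy 2.4.6 in Python 3.11.15, and figures with matplotlib 3.10.9.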

Additional observations from a re-analysis of the deposited data

Results flagged for a closer look

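Outside the comparison of named genes, 13723 probe sets carried several gene symbols or none. Fitted in the same way, 6 of them passed the limma threshold in WT_MR against WT_CD, 1 higher and 5 lower, and 919 had an unadjusted p under 0.05. They are reported because they lie in data that the comparison by gene does not use.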

How the results depend on the processing

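The count of 65 changed genes (42 higher, 23 lower) became 131 (84 and 47) with the 6 wild-type arrays alone, 2204 (1203 and 1001) with array weights, which put a weight of 16.7 on WT_MR replicate 1, and 564 (304 and 260) with weights fitted gene by gene, chosen after seeing the data. The share of higher calls was 64.62%, and 54.58% and 53.9% with the weights. With 1 array left out the count ran from 17 to 199 (10 to 114 higher, 7 to 85 lower). It was 53 to 91 under the other settings: scaling, pseudocount of 16, dim genes left out, probe sets averaged, another prior. The labels do not say what a replicate number marks. Correlations of deviations from the group means were 0.112, -0.055 and 0.244 for the same-numbered wild-type pairs, and not every pair was over 0.1, so no pairing was assumed. Over all 12 arrays 16 of 18 same-numbered pairs were above 0, against 10 of 36 others. Deviations within a group sum to 0, so values above 0 in same-numbered pairs push the others down. The counts of pairs are thus not independent. On average 11 arrays correlated best with their own number, a hint from the data and not the design. The replicate block called 74 genes, 56 of the 65 among them. The interaction count of 0 ran from 0 to 3 with 1 array left out. The 35 knock-in calls became 126 and 130 with gene-by-gene and array weights, 22 with median centring, and 7 to 94 with 1 array left out.

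None of the 65 changed direction under any setting. Genes near 0 did. With array weights Alb was at 0.003, Bhmt 0.008, Cbs -0.045, Cela3b 0.058, Clec4g -0.008 and Tmem267 -0.009, and with gene-by-gene weights Cbs was at -0.035, Cela3b 0.045 and Clec4g -0.005. Alb was at 0.011 with median centring and 0.038 with quantile normalization, and Clec4g at -0.027 with probe sets averaged. With 1 array left out, Alb ran from -0.035 to 0.028, Bhmt from -0.317 to 0.024, Cbs from -0.064 to 0.157, Cela3b from -0.115 to 0.101, Clec4g from -0.113 to 0.139, Csf3r from -0.038 to 0.153, Cyp8b1 from -0.692 to 0.059, Gnmt from -0.021 to 0.142 and Tmem267 from -0.181 to 0.324. The cause of these changes was not tested. The median of the female-biased list was 1.44 and 1.47 without the dimmest 25% and 50% of genes, which leaves fewer members. Values of genes below the lower quartile are limited by signal over background.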
